A study of Mus musculus with 14 samples.

Results

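The 14 RNA libraries of mouse ventricle in this series were divided here by how many of their counts fell on Esr1, the gene of oestrogen receptor alpha, and the 8 libraries with high Esr1 were compared with the 6 with low Esr1. The members were chosen by the measured Esr1 level: a library was placed in the high class when Esr1 had more than 100 counts per 1000000 of its total count. By label they were 3 sham and 4 TAC libraries of WT mice, and 3 sham and 4 TAC libraries of Rad knockout (Rad KO) mice, all from polyA-selected RNA. TAC, transverse aortic constriction, narrows the aorta by surgery so that the left ventricle pumps against a higher pressure, and in a sham operation the aorta is left as it is. The small GTPase Rad, product of the Rrad gene, holds back L-type calcium channels in heart muscle. Tamoxifen induced its knockout 4 weeks after TAC, and hearts were collected when over 2 months had passed since TAC and over 1 month since the knockout. The labels name neither the Cre line nor the deleted piece of Rrad, do not say whether WT animals received tamoxifen or carried a Cre, and do not tie each library to an animal of its own. The p-values thus measure only the spread between these libraries, which may be technical.

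Tamoxifen-inducible knockouts commonly use a Cre recombinase fused to a mutated ligand-binding part of the oestrogen receptor. HSP90 chaperones hold such a fusion in the cytoplasm until tamoxifen binds, after which it enters the nucleus and recombines DNA. One widely used version, MerCreMer, carries mouse receptor sequence on both sides of Cre and is driven in cardiomyocytes by the Myh6 promoter, and the insertion of a common line of it has been mapped within A1cf on chromosome 19. Counts per gene cannot separate RNA of the native Esr1 gene from RNA of a transgene that holds part of it. Whether the Esr1 counts came from a transgene was not tested, and the libraries are called only by their Esr1 level.

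Esr1 (ENSMUSG00000019768, mm10 chromosome 10, 4611593 to 5005614, plus strand) divided the libraries with a wide gap. Among sham libraries labelled WT, it had 1.24 counts per 1000000 in replicate 1, 1608 in replicate 2 and 2241 in replicate 3. Among sham libraries labelled Rad KO it had 1863, 1.05 and 1867 in replicates 1 to 3. The WT TAC libraries had 0.874, 1.70, 0.567 and 1.23, and the Rad KO TAC libraries 1156, 328, 1409 and 2470.4. The member just inside the threshold was Rad KO TAC 2 at 328 and the library just outside it WT TAC 2 at 1.70. These values chose the classes and carry no test. The class went with the genotype label in 11 of 14 libraries: WT sham 2 and WT sham 3 had high Esr1, and Rad KO sham 2 had low Esr1. In TAC the class and the label coincided, so only the sham libraries, 4 high against 2 low, separate them. On the length-scaled FPKM scale, Esr1 stood at 0.765% to 4.38% of Myh6 in the high class and at 0.00139% to 0.004% in the low class.

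**Figure D1:**
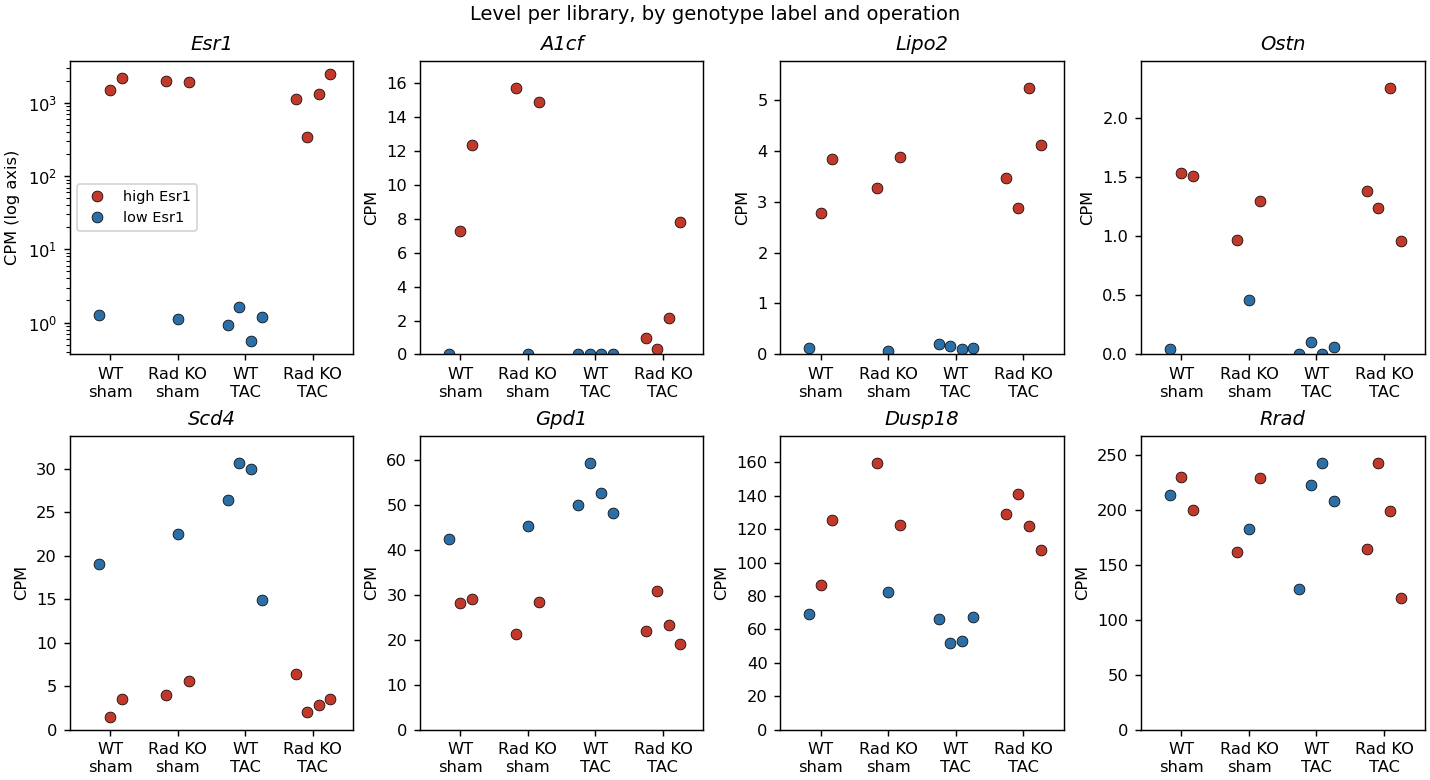
Level of 8 genes in each of 14 libraries, in counts per 1000000 (CPM; log axis for Esr1 only, linear from 0 elsewhere), by genotype label and operation. Each point is 1 library, red for high and blue for low Esr1. A1cf, Lipo2, Ostn and Dusp18 lie higher and Scd4 and Gpd1 lower in the red libraries of both operations, also in the 3 sham libraries whose class goes against their label, and Rrad overlaps throughout.

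The knockout target did not separate the libraries by label or by class. For Rrad (minus strand of chromosome 8, 104628070 to 104631327), the high sham libraries had 229.5, 199.7, 162 and 228 CPM and the low sham libraries 213 and 183. In TAC the high libraries, all labelled Rad KO, had 164, 243, 199 and 119, and the low libraries, all labelled WT, 128, 223, 242 and 208. The high class overlapped the low class, with a log2 fold change of -0.07 (SE 0.16) and adjusted p = 0.94, and the genotype label gave -0.18 (SE 0.19) with class in the model (adjusted p = 0.885, edgeR quasi-likelihood test). A deletion that leaves most of the transcript would not show in a count per gene, but why Rrad did not differ by label was not tested. The Rrad counts thus do not check the genotype labels, and libraries are written as labelled. Total counts were 14546176 to 23314792 per library, the latter in WT sham 1, and the mitochondrial share was 18.2% to 28.4%. The ventricle markers Myh6 and Myl2 had 2001 to 4817 and 2379 to 3709 FPKM, while the atrial markers Myl7 and Sln reached at most 1.08 and 0.0993 FPKM. Rad KO TAC 2 stood apart from the others on the third principal component, at -41.0 against -16.3 to 16.2.

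A class difference was fitted on 14488 genes with class and operation as terms (edgeR's quasi-likelihood F-test, with p adjusted by Benjamini-Hochberg and a threshold of 0.05; all adjusted p of class come from it). Apart from Esr1, 80 genes were higher (0.552% of those tested) and 74 lower (0.511%) in the high class, 1.06% in all. DESeq2 called 336 (2.32%), which include these 154. Protein-coding genes made up 146 of the 154. The differences were mostly modest: the median absolute log2 fold change was 0.59, and 29 higher and 15 lower genes reached 1. The 8 and 6 libraries did not overlap for 57 of the 154, against 0.545% of all genes tested. The 154 were called on these same libraries, so a larger share without overlap follows from their choice and is no further support. The number of genes past the threshold was 99 without WT sham 1, which is 1 of only 2 low sham libraries, and 121 to 196 when any other library was left out.

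**Figure D2:**
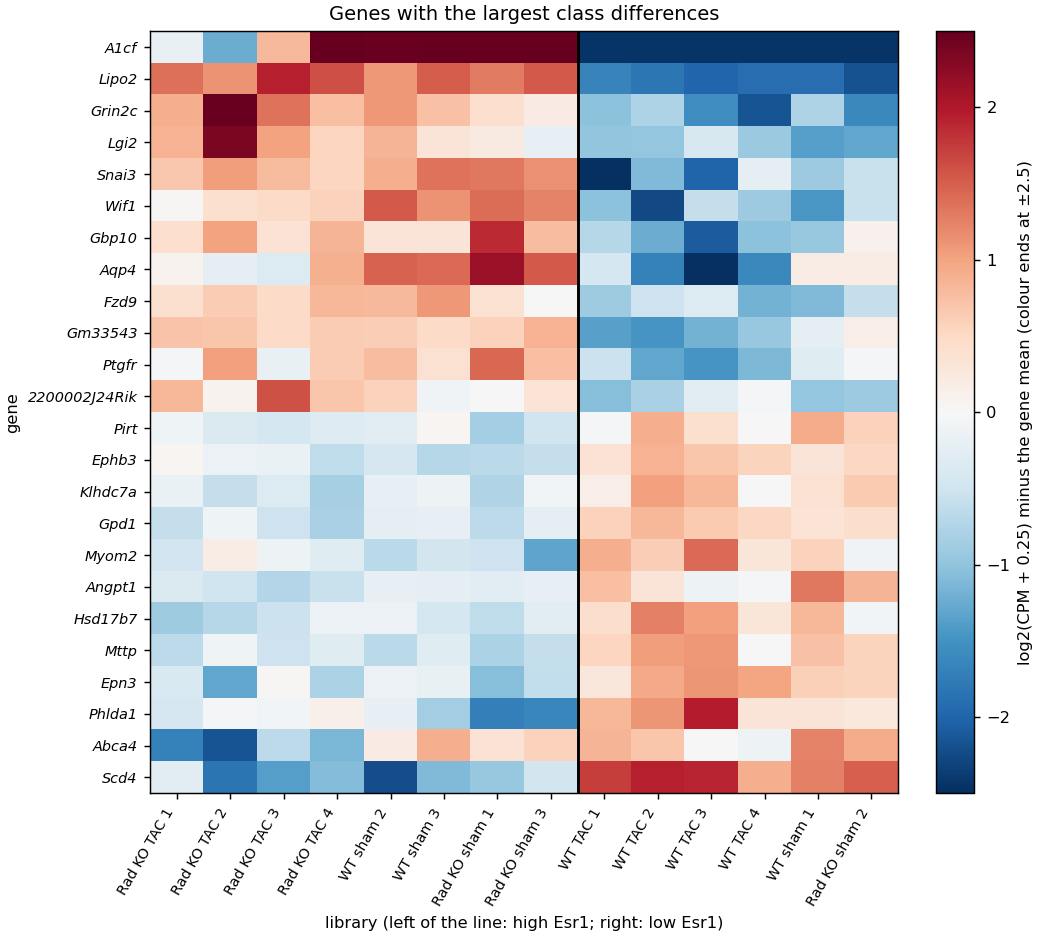
Log2(CPM + 0.25) minus the mean of the gene, for the 12 genes with the largest rise and the 12 with the largest fall under the naming rule (rows) in 14 libraries (columns, high Esr1 left of the line). Red is above and blue below the gene mean. The upper 12 genes are red mainly on the left and the lower 12 mainly on the right, with A1cf at the end of the colour scale in the sham libraries and Rad KO TAC 4 of the high class.

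The genes with the widest gaps lay on chromosome 19. A1cf (ENSMUSG00000052595, 31868764 to 31948573, plus strand) encodes a partner of the enzyme that edits apolipoprotein B messenger RNA and is best known from liver and gut. It had 7.26 and 12.4 CPM in WT sham 2 and 3, 15.7 and 14.9 in Rad KO sham 1 and 3, and 0.942, 0.326, 2.13 and 7.81 in Rad KO TAC 1 to 4. All 6 low libraries had 0 counts. Over the class the level was at least 264-fold higher with high Esr1 when the low class is set at a floor of 3 counts in all, a limit that covers counting error only. The gene passed the filter on low counts only through the high class, so it had to differ, and no p is given. Every high library was above every low library, with the lowest levels in Rad KO TAC 1 to 3. Relative to Esr1, on the FPKM scale, A1cf was 1.97% to 3.18% in the high sham libraries and 0.342% to 1.29% in the high TAC libraries. The lowest A1cf level and the lowest Esr1 level of the high class were both in Rad KO TAC 2, which had 5 counts of A1cf. At the other end the order differed. Rad KO TAC 4, with the highest Esr1, had less A1cf than WT sham 3 and Rad KO sham 1 and 3. Whether the levels go together within the high class was not tested.

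The region upstream of A1cf is shown because this gene has the widest gap between the classes. The window runs from 250 bases before to 50 after the RefSeq start (GRCm38.p6, chr19:31868563-31868862, plus strand), and capitals mark GGTCA or its reverse complement TGACC, the half-site of the oestrogen response element.

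A1cf: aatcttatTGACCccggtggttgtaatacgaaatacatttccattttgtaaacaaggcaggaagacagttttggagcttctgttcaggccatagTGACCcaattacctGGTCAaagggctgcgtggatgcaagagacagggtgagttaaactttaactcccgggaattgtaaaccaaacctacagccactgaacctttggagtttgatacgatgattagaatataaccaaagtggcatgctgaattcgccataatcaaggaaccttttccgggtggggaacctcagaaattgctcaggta

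This window holds 3 half-sites and no full element, GGTCANNNTGACC. The share of windows with 3 or more half-sites is not given, so nothing is read from this number. Among all 32851 windows of this length in the table, 40.5% hold a half-site on either strand and 0.0700% the full element. For genes higher with high Esr1, 65 of 80 had an entry, with 76 windows, of which 35.5% held a half-site and 0 the full element. For genes lower with high Esr1, 55 of 74 had an entry, with 73 windows, of which 46.6% held a half-site and 0 the full element. The letters TATAAA were in 9.21% and 11% of these windows and in 13.6% of all.

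Within 5 Mb of A1cf, 61 other genes were tested and 4 passed the threshold, all higher with high Esr1. For Gm19241, Lipo4 and Lipo2 the low class held almost no counts, so these genes passed the filter on low counts only through the high class and could only be called higher; nothing is read from the share they make up. Gm19241, a processed pseudogene in an intron of A1cf on the same strand (31913644 to 31914551), had 1.36, 1.44, 1.93 and 1.23 CPM in the high sham libraries and 0.377, 0, 0.609 and 1.23 in the high TAC libraries, with 0 counts in the low class. It was at least 35.6-fold higher at the same floor, and reads of unspliced A1cf RNA cannot be told apart from its own. Lipo2 (33719670 to 33769142, minus strand), of the lipase family, had 2.78, 3.83, 3.27 and 3.88 CPM in the high sham libraries against 0.131 and 0.0659 in the low sham libraries. In TAC it had 3.46, 2.87, 5.23 and 4.11 against 0.197, 0.161, 0.111 and 0.132. No library overlapped the other class, and the fitted log2 fold change was 4.74 (SE 0.26). As for A1cf, no p is given.

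Lipo4 (33498037 to 33517780), a close relative of Lipo2, had 83 counts over the high class and 3 over the low class, a ratio per total count of 23.4 (95% interval 7.75 to 116, counting error only). Lipo family members are near copies of each other, so how reads were shared among them is uncertain. Lipo3, whose GENCODE M21 model spans Lipo2 on the same strand without sharing an exon, went the other way, with means of 6.45 CPM in the high and 8.92 in the low class (log2 fold change -0.46, SE 0.12), and did not pass (adjusted p = 0.0897). Il33, which encodes an alarmin cytokine, had 4.66 to 7.54 CPM in high and 2.84 to 3.49 in low sham libraries, and 5.89 to 8.36 against 2.56 to 5.53 in TAC. Its log2 fold change was 0.91 (SE 0.18, adjusted p = 0.0149), and the adjusted p was 0.0588 without WT sham 1. Acta2, the smooth muscle actin gene in the same window, did not pass (log2 fold change 1.50, SE 0.35, adjusted p = 0.0534). Around Rrad, 87 other genes were tested in a window of the same size and 0 passed. On the whole of chromosome 19, 11 of 493 genes passed, 2.23%, where 1.06% of all genes tested passed. The 11 include A1cf, Gm19241, Lipo2 and Lipo4, which could only be called higher. Nothing is read from this share or from the 0 around Rrad.

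**Figure D3:**
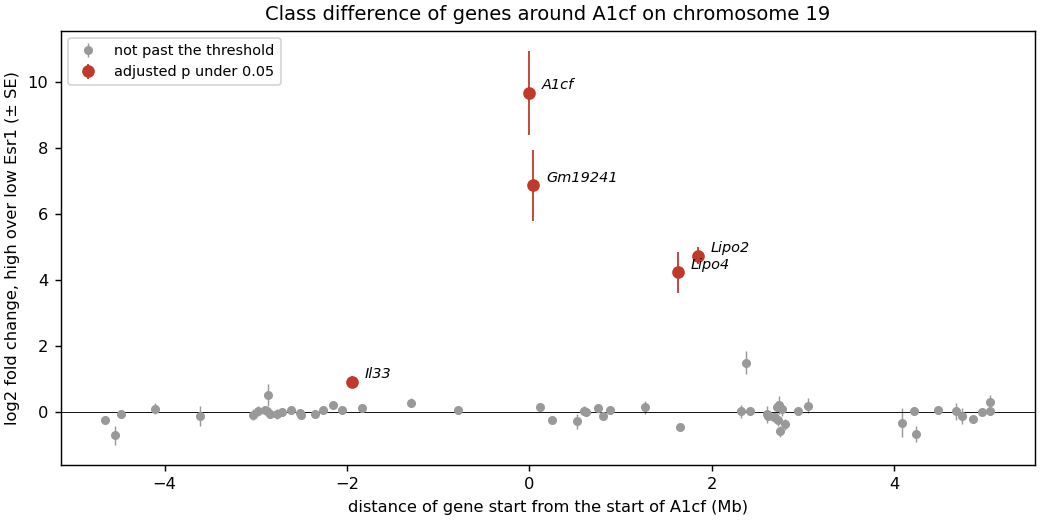
Log2 fold change of high over low Esr1 (± SE from the model over 14 libraries) for the 62 genes tested within 5 Mb of the start of A1cf, against distance in Mb. Red points passed an adjusted p of 0.05. The fitted values of A1cf and Gm19241 rest on a low class with 0 counts and are no fold change; the 57 points not past the threshold lie between -0.71 and 1.50, with Acta2 the highest.

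Beyond chromosome 19, the largest rises under the naming rule were in Grin2c, Lgi2, Snai3 and Wif1. This rule takes only genes whose classes do not overlap within sham and within TAC. Lack of overlap there is thus no finding for the genes it named. Grin2c, an NMDA receptor subunit, had 6.52, 5.08, 4.01 and 3.43 CPM in high and 1.62 and 0.791 in low sham libraries. In TAC it had 5.78, 17.4, 7.91 and 5.14 against 1.31, 1.61, 0.835 and 0.461. The classes did not overlap, and Rad KO TAC 2 was the highest library (log2 fold change 2.63, SE 0.36, adjusted p = 0.00121). Lgi2, a secreted leucine-rich repeat protein, showed the same order, from 6.79 to 41.3 CPM in the high class and from 2.84 to 5.84 in the low class, again with Rad KO TAC 2 highest.

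Wif1, a secreted inhibitor that binds Wnt ligands, had 12.8, 9.66, 11.7 and 10.4 CPM in high and 1.40 and 2.83 in low sham libraries. In TAC it had 4.40, 5.75, 6.09 and 6.51 against 1.97, 0.697, 2.73 and 2.17, so that all high libraries exceeded all low ones (log2 fold change 1.93, SE 0.26, adjusted p = 0.00121). Fzd9, a Wnt receptor, rose by a log2 fold change of 1.48 (SE 0.21) and Dixdc1, a DIX-domain protein of the Wnt pathway, by 1.30 (SE 0.17), both without overlap. Snai3, a zinc-finger repressor of the Snail family, had 10.6 to 19 CPM in the high class and 0.722 to 6.06 in the low class. Its neighbour Rnf166, a ubiquitin ligase 5.41 kb away on the same strand, had 74.0 to 103 and 43.5 to 62.4 CPM (log2 fold change 0.70, SE 0.08, adjusted p = 0.000453). Rnf166 lies outside the naming rule and was picked as 1 of 6 pairs of called genes within 200 kb of each other.

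Other rises in this set were Gbp10, an interferon-inducible GTPase (1.86, SE 0.34), Aqp4, a water channel (1.68, SE 0.34), Ptgfr, the prostaglandin F receptor (1.39, SE 0.24), Gm33543 (1.42, SE 0.20) and 2200002J24Rik (1.39, SE 0.24), all as log2 fold changes. Aqp4 had an adjusted p of 0.0638 without WT sham 1 and 0.0551 without Rad KO sham 2, the 2 low sham libraries. Gbp10 shares exons with an overlapping gene model on the same strand, and its neighbour Gbp6 rose by 0.90 (SE 0.17).

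The largest fall under the naming rule was in Scd4, followed by falls of smaller size in Abca4, Phlda1, Epn3 and Mttp. As for the rises, the rule itself required no overlap within sham and within TAC. Scd4 (ENSMUSG00000050195, chromosome 19, 44333092 to 44346743, plus strand), a stearoyl-CoA desaturase that in mouse is found mainly in heart, had 1.47, 3.51, 3.94 and 5.63 CPM in high and 19 and 22.5 in low sham libraries. In TAC it had 6.35, 2.02, 2.86 and 3.56 against 26.4, 30.7, 29.9 and 14.9. Every high library was below every low library, and the log2 fold change was -2.67 (SE 0.26, adjusted p = 5.41e-05). It lies more than 5 Mb from A1cf, outside the window above.

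Gpd1, which links glycolysis to glycerolipid synthesis, had 28.1, 29.0, 21.2 and 28.4 CPM in high and 42.4 and 45.4 in low sham libraries, and 22.0, 30.8, 23.3 and 19 against 50.1, 59.4, 52.5 and 48.2 in TAC. The classes did not overlap (log2 fold change -0.97, SE 0.11, adjusted p = 0.000453), and Gpd1 shares exonic sequence with an antisense gene that counts without a stated strand setting cannot separate. Mttp, Angpt1, Ostn, Phlda1, Ptgfr, Aldh1l2, Grin2c and Cacnb2 likewise share exonic sequence with a gene on the other strand. Mttp, which loads lipid onto lipoproteins, had 3.34 to 5.48 CPM in the high and 6.0 to 13 in the low class (-1.20, SE 0.16). Hsd17b7, an enzyme of cholesterol synthesis that also makes oestradiol, had 8.29 to 14 and 14.8 to 37.7 CPM (-1.16, SE 0.19).

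Angpt1, the ligand that activates the endothelial Tie2 receptor, had 12 to 17.5 CPM in the high class and 18.5 to 50.7 in the low class, with the highest values in WT sham 1 and Rad KO sham 2 (log2 fold change -1.04, SE 0.14, adjusted p = 0.00121). Ephb3, an ephrin receptor, fell by 0.92 (SE 0.11), Epn3, an endocytic adaptor, by 1.26 (SE 0.19) and Phlda1 by 1.30 (SE 0.25), each with no overlap of the classes. Klhdc7a (-0.96, SE 0.18) and Pirt (-0.89, SE 0.18), a regulator of sensory channels, were also lower, Pirt with an adjusted p of 0.0781 without WT sham 1. Abca4, a lipid flippase known from photoreceptors, was lower by a log2 fold change of -1.30 (SE 0.29, adjusted p = 0.0396) but lost the call when any of the 11 libraries other than WT sham 3, WT TAC 4 and Rad KO sham 2 was left out, with adjusted p up to 0.0921.

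Among ion channel genes, Kcnd2, Kcnip2 and Kcnj2 were higher. Kcnd2, which encodes the pore of the transient outward current, had 54.7, 43.8, 46.9 and 44.6 CPM in high and 30.9 and 32.6 in low sham libraries, and 39.3, 31.9, 31.7 and 42.3 against 23.4, 12.2, 10.6 and 26.0 in TAC. The classes did not overlap within either operation (log2 fold change 0.84, SE 0.17, adjusted p = 0.023). The adjusted p was 0.057 without WT sham 1, 0.0529 without Rad KO TAC 1 and 0.0562 without Rad KO TAC 4. Kcnip2, its auxiliary subunit, had a log2 fold change of 0.59 (SE 0.13, adjusted p = 0.0258), and adjusted p of 0.0508 to 0.0806 without WT sham 3, WT TAC 2, WT TAC 3, Rad KO sham 2 or Rad KO TAC 3. Kcnj2, the inward rectifier, rose by 0.55 (SE 0.11, adjusted p = 0.0191). With the genotype label in the model, the adjusted p was 0.286 for Kcnj2, 0.183 for Kcnd2 and 0.129 for Kcnip2. Other genes of these potassium currents did not pass, with log2 fold changes of 0.18 for Kcnd3 (adjusted p = 0.667), -0.27 for Kcna4 (adjusted p = 0.83) and -0.13 for Kcnj12 (adjusted p = 0.661).

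In the list of potassium, sodium and gap junction channels (23 tested), 4 passed the threshold, 3 of them higher, where 1.06% of all genes tested passed, and the list median was -0.01 against 0.00 over all genes. Among 16 calcium channel and RGK genes, 0 were higher and 1 lower, with a median of -0.11, where 0.552% of all genes tested were higher and 0.511% lower. Cacnb2, the beta subunit through which Rad acts on the calcium channel, had 38.6 to 50.1 CPM in high and 56.9 to 73.6 in low sham libraries, and 34.0 to 49.2 against 51.0 to 60.9 in TAC. It did not overlap between the classes (log2 fold change -0.49, SE 0.09, adjusted p = 0.0147), and the adjusted p was 0.0751 without WT sham 1. Cacna1c, the channel pore, had -0.23 (adjusted p = 0.338).

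In the sarcomere list, 0 of 18 genes were higher and 2 lower, with a median of -0.12, where 0.511% of all genes tested were lower. Myom2, which encodes an M-band protein, had 345 to 979.7 CPM in the high class and 810.2 to 2305 in the low class (log2 fold change -1.01, SE 0.18, adjusted p = 0.00769). Its adjusted p was 0.134 with the genotype label in the model. Tnnt2, cardiac troponin T, had -0.35 (SE 0.08, adjusted p = 0.0287) and lost the call without any of 10 libraries, with adjusted p up to 0.131, reached without WT sham 1; it kept it only without WT TAC 1, Rad KO sham 1, Rad KO TAC 2 or Rad KO TAC 4. Myh6, whose promoter drives common cardiac Cre lines, had 18793 to 29131 CPM in the high and 13536 to 32497 in the low class (-0.04, SE 0.16, adjusted p = 0.97). Genes that respond to load were not past the threshold in either direction (0 of 11, median -0.52), where 1.06% of all genes tested passed. The list summed to 4644 to 5454 CPM in high and 4632 to 4986 in low sham libraries. In TAC, where class and label coincide, the sums were 8206 to 20263 against 13412.5 to 25557 CPM. Nppa had -0.80 (SE 0.46, adjusted p = 0.607).

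Cenpf, a kinetochore protein, was the sole call among 32 cell cycle genes (median 0.19), where 1.06% of all genes tested passed. Here and in the lists below, a sole call is no result about the list. Cenpf had 62.0, 60.7, 57.0 and 28.9 CPM in high and 40.3 and 14.6 in low sham libraries, and 10.3, 18.1, 18.0 and 28.6 against 9.91, 8.74, 5.23 and 4.41 in TAC. The sham classes overlapped, and the call was marginal (log2 fold change 1.18, SE 0.28, adjusted p = 0.0492). It was past the threshold only without WT sham 1, Rad KO sham 3 or Rad KO TAC 1, and without any other library the adjusted p was 0.062 to 0.136, highest without Rad KO sham 2. Aldh1l2, a mitochondrial folate enzyme, was the sole call among 20 serine and one-carbon genes (0.94, SE 0.20, adjusted p = 0.0292), lost without any of WT sham 1 and 3, WT TAC 1, 2 and 3, Rad KO sham 1, 2 and 3 and Rad KO TAC 3, with adjusted p of 0.0518 to 0.108. Pde4d, which degrades cyclic AMP, was the sole call among 18 beta-adrenergic genes (0.41, SE 0.09, adjusted p = 0.0312), lost without any library other than WT sham 2, Rad KO sham 3 and Rad KO TAC 1, with adjusted p of 0.0529 to 0.0841.

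**Figure D4:**
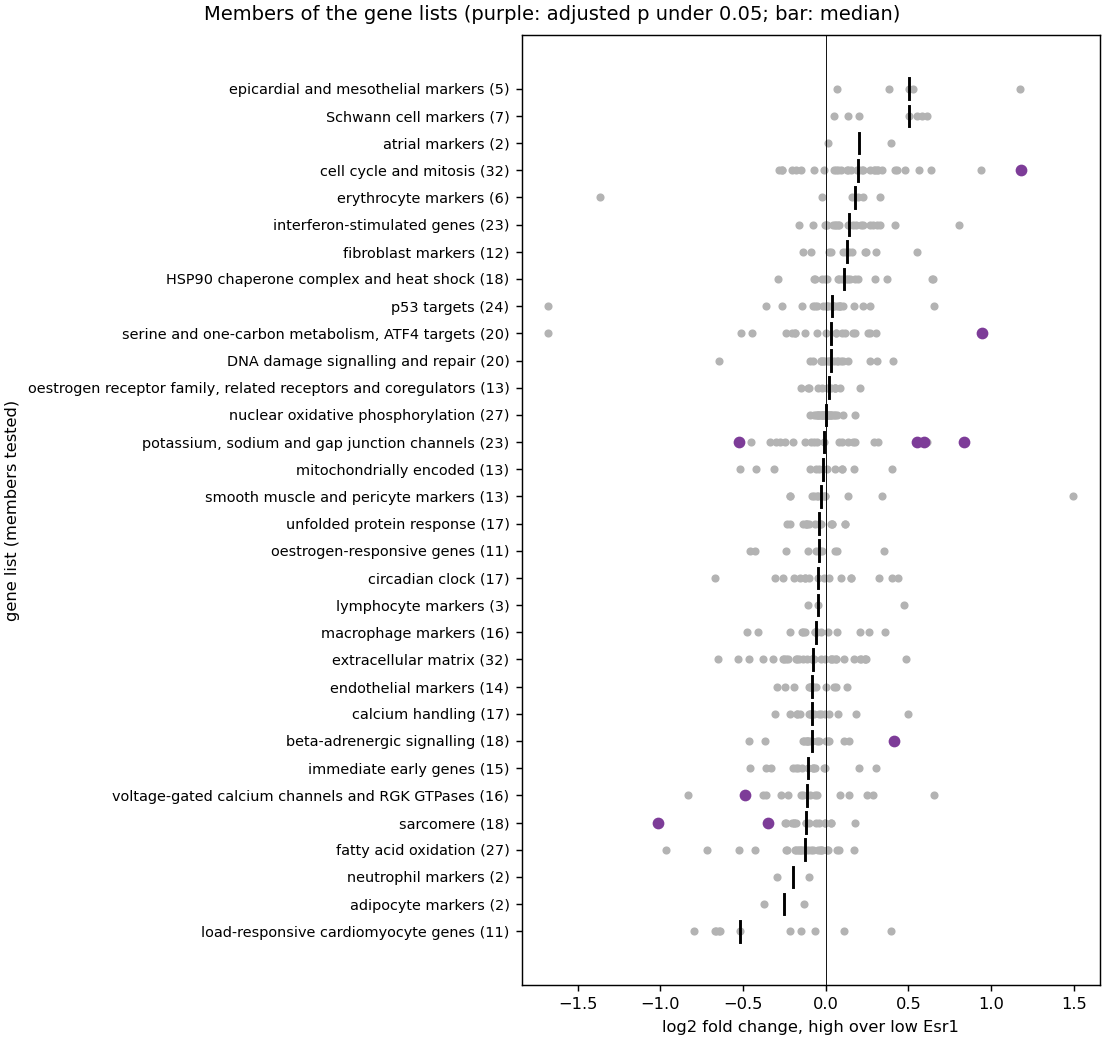
Log2 fold change of high over low Esr1 for each tested member of the gene lists with more than 1 tested member. Each point is a gene, purple past an adjusted p of 0.05, and the bar is the list median; the highest medians, near 0.50, are those of epicardial and Schwann cell markers, and the lowest, -0.52, is that of load-responsive genes.

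The lists around oestrogen receptor signalling had no member past the threshold, where 1.06% of all genes tested passed. At that share, 0 calls in a list this short are no result about its members. Of 13 receptors and coregulators related to Esr1, 8 had a positive and the others a negative log2 fold change, with 0 called and a median of 0.02. Of 11 oestrogen-responsive genes, 0 were called and 3 were positive (median -0.04). Greb1 had -0.43 (adjusted p = 0.882), and Igfbp4 had 0.35 (SE 0.14, adjusted p = 0.366). Of 18 HSP90 and heat shock genes, 0 were called and 13 were positive (median 0.11), with Hspa1b at 0.64 (SE 0.20, adjusted p = 0.173), Hspa1a at 0.65 (SE 0.25, adjusted p = 0.331) and Hsph1 at 0.37 (SE 0.12, adjusted p = 0.199). An unadjusted p under 0.05 was found for 6 of these 18 and for 1466 of all 14488 genes. Shares at least as large were seen elsewhere, with 8 of 18 in the sarcomere list and 4 of 11 among load-responsive genes. Other lists had few, such as 1 of 23 interferon genes and 0 of 14 endothelial markers. The 6 are thus not read as particular to heat shock genes. The p53 (0 of 24), DNA damage (0 of 20), interferon (0 of 23), unfolded protein (0 of 17), extracellular matrix (0 of 32) and fatty acid oxidation (0 of 27) lists also had 0 calls. These are to be read against the same share. A miss of the threshold does not show that the classes were alike.

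Markers of other cell types were read in the same fit, since in bulk tissue fewer cells of a type and less RNA per cell cannot be told apart. Of fibroblast, endothelial, macrophage, smooth muscle, lymphocyte, neutrophil, adipocyte, erythrocyte, atrial, epicardial and Schwann cell markers, 0 passed, where 1.06% of all genes tested did. All 7 tested Schwann cell markers were positive (median 0.50), and their summed level was 23.3 to 27.8 CPM in high against 17.9 to 20 in low TAC libraries, and 27.4 to 33.1 against 26.2 to 27.3 in sham. All 5 epicardial and mesothelial markers were also positive (median 0.50), with sums of 5.62 to 20.1 CPM in high against 8.43 to 14.9 in low TAC libraries and 6.21 to 26.5 against 9.62 to 10.6 in sham. Of 12 fibroblast markers, 10 were positive (median 0.13), with sums of 2363 to 4937 against 2528 to 3923 CPM in TAC and 2700.1 to 3291 against 2300.0 to 2526 in sham. The part of these cells in the results was not tested. In sham, some contractile genes of smooth muscle stood higher in the high class. Acta2 had 609.7 to 1027 CPM against 158 and 397, Myl9 168 to 245 against 34.2 and 57.6, and Tpm2 64.0 to 99.8 against 22.2 and 40.3. Myl9 (1.78, SE 0.37, adjusted p = 0.0223) and Tpm2 (1.24, SE 0.23, adjusted p = 0.0122) passed and overlapped between the classes in TAC. They were named after their values were seen, while the 13 listed smooth muscle and pericyte markers had a median of -0.03 with 3 positive.

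**Figure D5:**
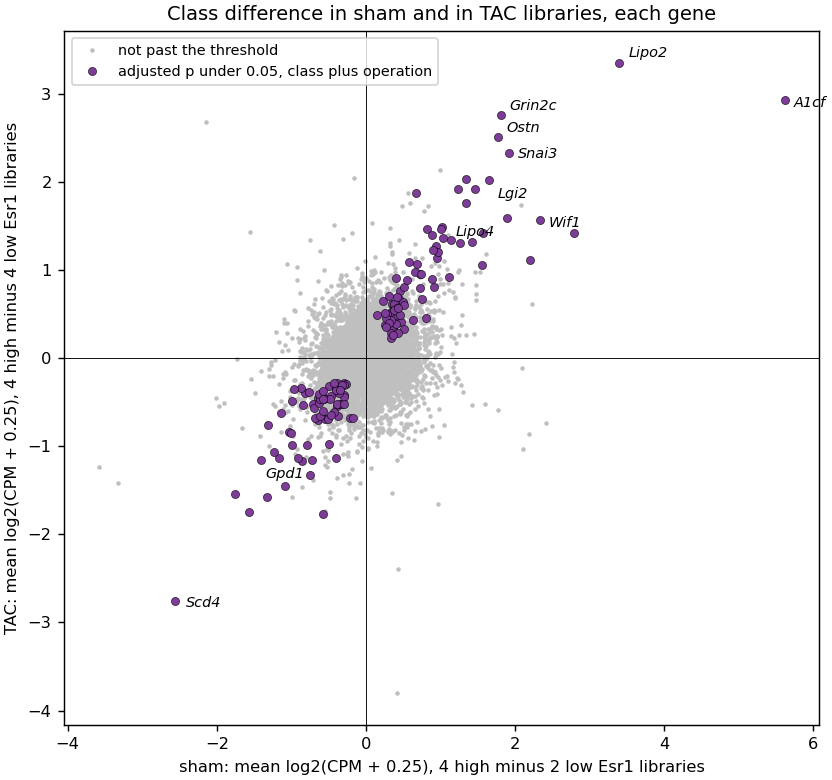
Difference of mean log2(CPM + 0.25) between high and low Esr1 libraries in sham (4 against 2, horizontal) and in TAC (4 against 4, vertical) for each of 14488 genes. Purple points passed an adjusted p of 0.05 in the model that uses both operations; all 154 have the same sign on both axes, with Lipo2 and A1cf at the top right and Scd4 at the bottom left.

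The sham libraries, read alone and without a test, separate class from label. Genes that passed in TAC alone were followed there, because TAC shares no library with sham. In TAC alone (4 against 4), 9 genes besides Esr1 passed, 0.0644% of 13966: Lipo2, Ostn, Grin2c, Gm33543, Dixdc1, Fam81a and Dusp18 were higher, and Scd4 and Gpd1 lower. Lipo2 and Ostn held almost no counts in the low TAC libraries. In TAC they passed the filter on low counts only through the high class and could only be called higher. In sham, all 9 had the same direction by class and no overlap of the 4 and 2 libraries. Among all genes, 8.71% were higher and 8.92% lower without overlap in sham. Ostn, the secreted peptide osteocrin that binds the natriuretic clearance receptor, had 1.53, 1.51, 0.966 and 1.29 CPM in high and 0.0437 and 0.461 in low sham libraries, and 1.38, 1.24, 2.25 and 0.959 against 0, 0.107, 0 and 0.0659 in TAC. Dusp18, a dual-specificity phosphatase, had 86.8, 126, 159.8 and 123 CPM in high and 69.0 and 82.2 in low sham libraries, and 129, 141, 122 and 107 against 66.5, 51.7, 52.9 and 67.3 in TAC. Of 855 genes at an unadjusted p under 0.05 in TAC alone, 79.2% had the same direction by class in sham, against 58.6% of all genes tested. A1cf was not among the 9, since its counts in TAC alone were below the filter.

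With the genotype label added to the model, 59 genes passed for class (0.407%) and 1 for the label (0.0069%), and 50 of the 59 were among the 154. Of 40 called named genes, 19 lost the call of class in this model, with adjusted p of 0.0747 to 0.306. They were Kcnd2, Kcnip2, Kcnj2, Cacnb2, Myom2, Tnnt2, Il33, Gbp10, Aqp4, Ptgfr and 2200002J24Rik. Also lost were Hsd17b7, Phlda1, Klhdc7a, Pirt, Abca4, Cenpf, Aldh1l2 and Pde4d. The 1 gene past the threshold for the label was mt-Atp6, a mitochondrially encoded subunit of ATP synthase, named here after its value was seen. In sham, the libraries labelled WT had 1092, 805 and 775 CPM and those labelled Rad KO had 2325, 2199.7 and 1638. In TAC it had 500.4, 628, 697 and 671 in WT and 879, 1041, 1366 and 1243 in Rad KO. It followed the label without overlap within each operation, also in the 3 sham libraries where class and label differ (log2 fold change of the Rad KO label 1.20, SE 0.14, adjusted p = 0.00355), and had 0.40 by class (SE 0.26, adjusted p = 0.684). Libraries of each label were deposited in a table of their own, so label and table cannot be told apart.

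Whether the class difference itself differed between sham and TAC was tested as an interaction. By edgeR's quasi-likelihood test 0 genes passed, 358 had an unadjusted p under 0.05, and DESeq2 passed 1, Cnga3. All 154 called genes had the same sign in both operations, a property that a model with a common class term favours. The classes did not overlap within sham and within TAC for 113 of the 154, and for 1.23% of all genes tested. Calling the 154 on these same libraries favours this too, so it is no further support. Within TAC alone, 3.74% of all genes tested had no overlap.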

How the data were processed

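The 14 ventricle libraries were grouped and numbered per the labels. The authors deposited, per the file headers, a raw count and an FPKM value per gene and library in 2 tables (24279 and 23925 genes), of which 22136 genes in both were joined. The submitters' processing notes name HISAT2, DESeq2, edgeR and the mm10 build. Not given in the sources used here are tool versions, the counter, its strand setting, the annotation and filters. FPKM served only to set Esr1, A1cf and tissue marker levels per gene length.

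Classes were set by Esr1 counts per 1000000 of the column total (threshold 100). Counts were fitted in R 4.3.3 by edgeR 4.0.16 (filterByExpr at minimum count 10 and minimum total 15, TMM, quasi-likelihood F-test of class plus operation, Benjamini-Hochberg over 14488 genes). Esr1 was left out of all counts of calls. The SE is the absolute log2 fold change over the square root of F. CPM values are TMM-scaled over 14 libraries. Alternatives were DESeq2 1.42.0, its size factors in edgeR, no filter, stricter thresholds, the genotype label as covariate, a replicate block, TAC alone, and leaving out each library or each sham group. On simulated data for the class comparison (14270 genes), 91% of 2-fold and 98% of 4-fold changes were recovered with 18 false calls. The changed genes were drawn only from genes above a minimum average level. Recovery of genes with few counts, or of changes under 2-fold, was thus not measured.

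Named genes are the 12 per direction with the largest change that were past the threshold, protein-coding, averaging 50 counts or more in the higher class and not overlapping within sham and within TAC, plus called genes within 5 Mb of A1cf or Rrad, up to 4 called members per list, or up to 2 by smallest p where 0 passed, and fixed genes. The members, classes and lists were chosen with earlier results of these data known. Of gene IDs, 99.9% were found in GENCODE M21, 96.9% of these with the same coordinates. Promoter windows are RefSeq's (GRCm38.p6). Plots used Python 3.11.15 with matplotlib 3.10.9. A few genes within this rule are not reported here.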

Additional observations from a re-analysis of the deposited data

Results flagged for a closer look

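In groups of 4 libraries, a library was marked when its gap to the nearest other was an unusually large part of the group's range, which chance gives in about 1 of 20 groups; 200 groups were examined. Rad KO TAC 2, the high library with the lowest Esr1, was marked for 6 of the genes given here. Its level was 41.3 CPM for Lgi2 (others 11.5 to 15.9), 43.7 for Fam81a (26.8 to 29.6), 806 for Hspb8 (473 to 517), 605 for Nppb (261 to 315), 1350.2 for Nppa (148 to 262) and 0.0653 for Krt19 (0.880 to 1.03).

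In the other Rad KO TAC libraries, replicate 1 had 0.377 CPM of S100a9 (others 1.03 to 1.16), and replicate 3 had 17.5 of Ucp3 (27.0 to 28.0) and 1.83 of Hba-a2 (0.0685 to 0.326). Among WT TAC libraries, replicate 1 had 0.197 CPM of Fancd2 (0.697 to 0.779) and 25.7 of Hba-a2 (0.0536 to 1.45). Replicate 3 had 5.84 of Lgi2 (3.81 to 4.02), and replicate 4 had 436 of Sdhc (349 to 360.0) and 422 of Ndufs7 (300.2 to 309).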

How the results depend on the processing

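Of 80 higher and 74 lower genes, 33 and 27 had an adjusted p under 0.01, and 29 and 15 reached 1 in absolute log2 fold change. DESeq2 gave 167 and 169, sharing all 154, and the genotype label as covariate 25 and 34. Chosen after seeing the data, TAC libraries alone gave 7 and 2, no WT sham libraries 40 and 27, and no Rad KO sham libraries 33 and 26. Leaving out 1 library gave 54 to 92 higher and 45 to 104 lower. DESeq2's size factors in edgeR (79 and 74) and no filter on low counts (85 and 78) stayed near the first counts. The replicate numbers did not pair the libraries (correlations of deviations -0.146 to 0.146), and the replicate block gave 90 and 80, with 140 of the 154 kept; Cenpf had an adjusted p of 0.0604 and Pde4d 0.0807 under it. The interaction count was 0 under edgeR in each setting run and 1 under DESeq2. Of 40 called named genes, 0 changed direction under any setting run, and 19 lost the call with the genotype label in the model, 14 without the WT sham and 17 without the Rad KO sham libraries, and 28 of the 37 that could be tested in TAC alone. The causes were not tested. Only 2 low sham libraries exist, and genes of few counts, such as Lipo4, are limited by depth.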
